A study of Oryza sativa Japonica Group with 21 samples.

Results

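On rice arrays, 165 of 57258 probe sets gave a strong signal in the just-expanded leaf 3 and a far weaker one in leaf primordium and in young stamens. The members were chosen from the measured values. A probe set was taken when its expanded leaf mean was at least 10 on the log2 scale, lay at least 5 above the highest mean of the other 6 groups, and was at least 9 on each expanded leaf array. The difference from the highest other group mean is called the gap below, and a gap of 1 is a 2-fold difference. Of 181 probe sets that met these limits, 16 were left out by gene name. They belong to the photosynthesis genes RCAA1, RBCS1, FBPase, ALDP and PETE, to the metallothionein MT2B and to Osnph1a, a phototropin. The rule would also have left out CAB genes, RCABP89 and GLK, but no probe set of those names met the limits. The 165 members are 0.288% of the probe sets measured. Since the values chose them, expanded leaf levels and gaps are given as a description and carry no test.

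RNA was measured on 21 Affymetrix arrays in 7 groups of 3, from Oryza sativa ssp. japonica cultivar Zhonghua 15. The groups were stamens at stages 2, 3, 4, 5 and 6, the primordium of leaf 3, cut out of the embryo after its seed had soaked for 2 to 3 days, and leaf 3 when just expanded. Stamens were microdissected, and their stage was read from sections of the other part of the same panicle, so a stamen sample is a sorted organ and not a cell type. The labels give all groups the same cultivar and name no treatment or mutant, and the 3 replicates of each are described as biological. Growth was in a chamber at 30 ± 2 °C on a cycle of 11 h day and 13 h night or in a field, and it is not stated which samples came from which. All RNA (50 to 300 ng) went through 2 cycles of amplification.

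An expanded grass leaf is a source organ. Its chloroplasts fix carbon, and the products leave the mesophyll through sugar transporters and the phloem. Its peroxisomes take part in photorespiration, its aquaporins carry water and its epidermis is covered by cuticle and silica. A leaf primordium and a young stamen are sink organs built of young cells. In organ samples of this kind, fewer cells of a type and less RNA per cell cannot be told apart.

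By their medians, the green tissue, floral organ and soaked embryo lists followed the labels. Green tissue genes (RBCS, PETE and others, 5 of 6 measured) had a median of 13.11 to 14.07 on the expanded leaf arrays and 6.82 to 8.50 on all others. This check shares genes with those left out of the set. Floral organ identity genes (7 of 7 measured) had a median of 11.60 to 12.31 on the stamen arrays and 4.77 to 7.16 on the leaf arrays. Genes of dividing cells (3 of 3 measured) had a median of 10.20 to 11.52 on the stamen arrays. Their median was only 4.25 to 5.06 in leaf primordium, and 3.58 to 3.93 in expanded leaf. Carpel genes (3 of 3 measured) had a median of 5.24 to 6.33 over all arrays. Aleurone and soaked embryo genes (6 of 6 measured) had a median of 13.06 to 13.12 in leaf primordium and 4.80 to 7.13 elsewhere. Within that list, GLUA-1 and GLUD-1 were low in leaf primordium too, with means of 3.93 and 3.34. AMY1.3 (12.14) and LEA19 (9.98) were also high at stamen stage 2.

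The 165 members stood for 126 annotated genes. Of the probe sets, 141 were annotated to 1 gene and 24 to none, and 14 genes had 2 or more member probe sets. The annotation names 16 of the genes, measured by 18 probe sets, and holds only a locus number for the others, whose function is not given here. By the suffix of the ID, 27 members were of the kind (x) whose probes may match other transcripts too, and 18 of the kind (s) designed on sequence shared by several transcripts.

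Expanded leaf means of the members ran from 10.01 to 14.67 with a median of 11.40. In the other groups the median of the member means lay between 4.81 (stamen stage 5) and 5.00 (stamen stage 2), below the median of all probe sets in each of those groups (5.83 to 5.87). Gaps ran from 5.01 to 8.97 with a median of 6.01. The highest other group mean was under 6 for 114 members and under 4 for 28 members. It was 8 or more for only 2 of the 165, a ferredoxin probe set and one of LOC4352021. The 16 probe sets left out by name were brighter, with a median of 13.58 in expanded leaf and a median gap of 6.86. For all 165 members, each expanded leaf array lay above each of the other 18 arrays. The smallest such distance was 2.94, in a probe set that has no annotated gene and shares its cluster number with the MT2B probe sets left out.

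**Figure D1:**
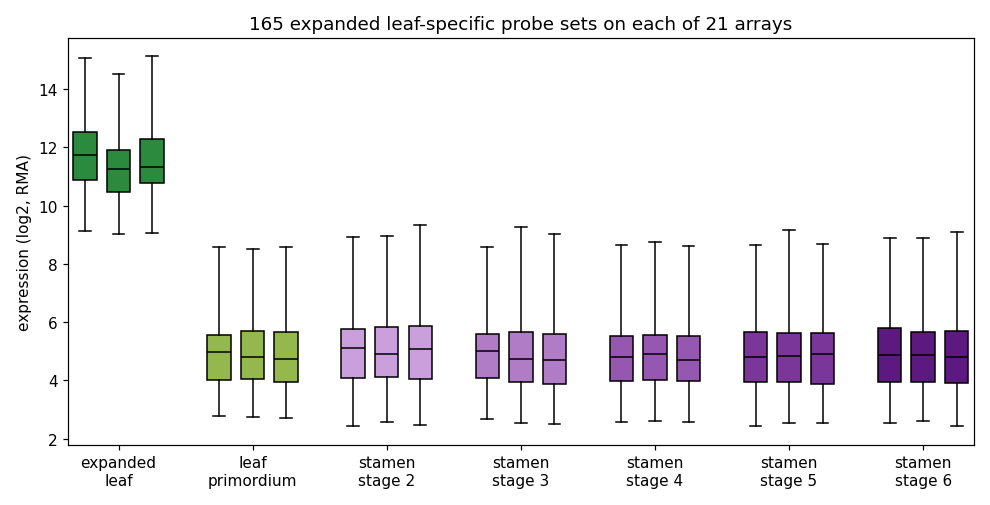
Expression of the 165 members on each of the 21 arrays (log2, RMA); boxes show the quartiles and the median, whiskers reach the lowest and highest member. The 3 expanded leaf arrays have medians of 11.75, 11.25 and 11.33, and the median on every other array lies between 4.69 and 5.10.

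At the gap limit, the members just inside were LOC4346604 (gap 5.014), LOC4351319 (5.063) and LOC4324479 (5.067). Just outside stood LFNR1, a leaf-type ferredoxin-NADP reductase that passes electrons from ferredoxin to NADP, with 4.997. LOC4349349 followed with 4.968 and LOC4335630 with 4.966. Another 11 probe sets met the limits on means and were kept out by the limit on single arrays alone. They included PIP2-7, an aquaporin of the plasma membrane (gap 5.40), and CIPK5, a protein kinase (gap 5.13).

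**Figure D2:**
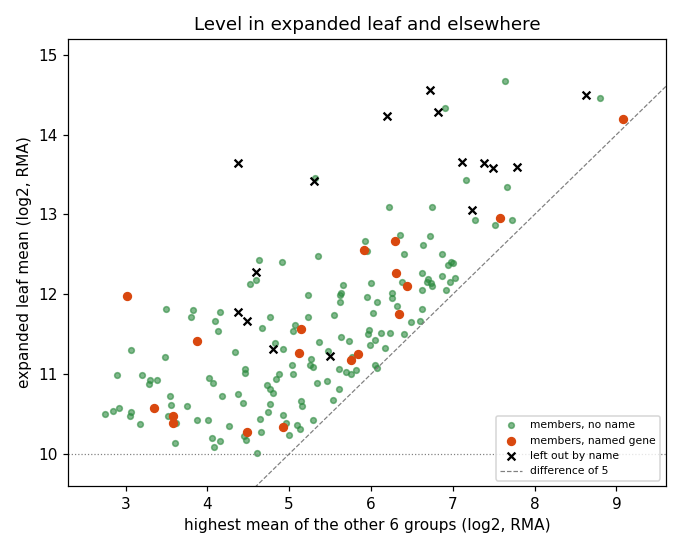
Expanded leaf mean of each probe set against the highest mean of the other 6 groups (both log2, RMA), with members in green, members of named genes in orange and the 16 probe sets left out by name as crosses. The dashed line marks a gap of 5 and the dotted line a level of 10; most members lie left of a level of 6 on the horizontal axis.

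The member with the largest gap was Pi21, a proline-rich protein with a metal-binding domain, whose loss-of-function allele makes rice more resistant to blast. Its log2 values on expanded leaf replicates 1, 2 and 3 were 12.92, 11.13 and 11.90. In leaf primordium it stood at 3.00, 2.91 and 2.70, and on the 15 stamen arrays between 2.68 and 3.05 (median 2.89). Its gap was 8.97. On this probe set the leaf primordium and stamen ranges overlapped, near the bottom of the scale. Another probe set of Pi21 gave 10.14 in expanded leaf and 7.03 in its highest other group (gap 3.11). OsCDSP32, a chloroplast thioredoxin-like protein known from drought stress, gave 11.80, 11.04 and 11.43 in expanded leaf. It gave 3.74, 3.89 and 3.16 in leaf primordium and 3.38 to 3.96 (median 3.70) in stamens, so these groups overlapped as well.

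The next largest gaps belonged to genes with a locus number only. LOC4349202 gave 11.75, 11.77 and 11.92 in expanded leaf and 3.14 to 3.67 in stamens (gap 8.32). LOC4328490 gave 11.42, 11.39 and 11.08, against 2.88 to 3.12 in stamens (gap 8.23). In both, the 3 leaf arrays lay close together. LOC4344999 was brighter, at 13.90, 13.92 and 12.56, with 5.02 to 5.52 in stamens (gap 8.15). A probe set with no annotated gene (gap 8.09), LOC4344507 (7.97), LOC4345356 (7.91), LOC4343821 (7.80) and LOC4328793 (7.79) followed. The brightest member was LOC4344899, with 14.85, 14.52 and 14.65 in expanded leaf and 7.20 to 8.13 in stamens.

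3 transport proteins were among the named members. SWEET2B belongs to the SWEET sugar transporters and gave 9.15, 10.50 and 11.51 in expanded leaf. Its values were 3.50, 3.61 and 3.10 in leaf primordium and 3.11 to 3.76 (median 3.42) in stamens. Replicate 3 was the highest leaf array and replicate 1 only just met the limit of 9. PIP2-2, a water channel of the plasma membrane, gave 12.20, 9.02 and 12.60 in expanded leaf. It gave 4.65, 4.73 and 4.43 in leaf primordium and 4.46 to 5.86 (median 4.54) in stamens. Replicate 2 was thus far below the other two leaf arrays, and the SD of 1.96 was the largest of all members. Lsi6, a silicon transporter that in rice unloads silicic acid from the leaf xylem, gave 9.84, 9.36 and 11.83 in expanded leaf. It gave 4.40, 4.56 and 4.28 in leaf primordium and 4.17 to 5.19 (median 4.35) in stamens.

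Named members tied to the cell wall, to lipids and to glycosides numbered 4. LTP2-B and LTP are lipid transfer proteins, small secreted proteins that bind lipids and are abundant in the epidermis. LTP2-B gave 11.93, 12.68 and 13.05 in expanded leaf, 5.29, 5.51 and 5.52 in leaf primordium and 5.07 to 6.11 (median 5.39) in stamens. LTP gave 11.92, 12.31 and 12.57 in expanded leaf, 6.34, 6.43 and 6.17 in leaf primordium and 5.01 to 6.12 (median 5.41) in stamens. In LTP the leaf primordium arrays lay above all stamen arrays, while in LTP2-B the 2 groups overlapped. BGLU16, a beta-glucosidase of glycosyl hydrolase family GH1, was measured by 2 probe sets. The one with the larger gap gave 9.13, 11.74 and 10.85 in expanded leaf and the other 9.91, 12.85 and 11.93. Both probe sets put replicate 1 lowest and replicate 2 highest, whereas replicate 2 was the lowest for PIP2-2. WGP1, a BURP domain protein, gave 12.86, 13.00 and 12.17 in expanded leaf, 5.37, 5.29 and 5.26 in leaf primordium and 5.32 to 6.64 (median 5.83) in stamens.

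Named members of peroxisomes and redox metabolism included PEX11-4, of a family of peroxins that act in peroxisome division. It gave 10.42, 9.68 and 11.35 in expanded leaf and 3.25 to 3.68 (median 3.44) in stamens. Ferredoxin, the soluble electron carrier of chloroplasts and other plastids, was not among the names left out. Its s probe set gave 13.85, 11.57 and 13.48 in expanded leaf, and its x probe set gave 14.52, 13.51 and 14.55. Both also had signal in stamens, at 6.99 to 7.85 and 8.59 to 9.35, so the gaps of 5.38 and 5.11 lay near the limit. AO-2 gave 10.58, 11.89 and 11.26 in expanded leaf and 4.96 to 6.22 in stamens.

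Signalling proteins among the named members were a kinase, a phosphatase, a calcium sensor-like protein and a zinc finger protein. CIPK25, a kinase of the family activated by calcineurin B-like calcium sensors, gave 9.57, 10.15 and 11.09 in expanded leaf and 3.80 to 4.40 in stamens. CML8, a calmodulin-like protein, gave 10.89, 11.48 and 11.17, with 4.55 to 5.77 in stamens. Their gaps were 5.79 and 5.42, and CML8 varied little among leaf arrays (SD 0.30). DI19-5, of the drought-induced 19 zinc finger family, gave 11.60, 12.12 and 12.58 in expanded leaf and 5.43 to 7.25 in stamens. BIPP2C1, a protein phosphatase 2C first found as induced by benzothiadiazole, gave 12.80, 11.25 and 11.21 in expanded leaf and 4.95 to 6.69 in stamens. Leaf replicate 1 was the highest for BIPP2C1 and the lowest for DI19-5.

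**Figure D3:**
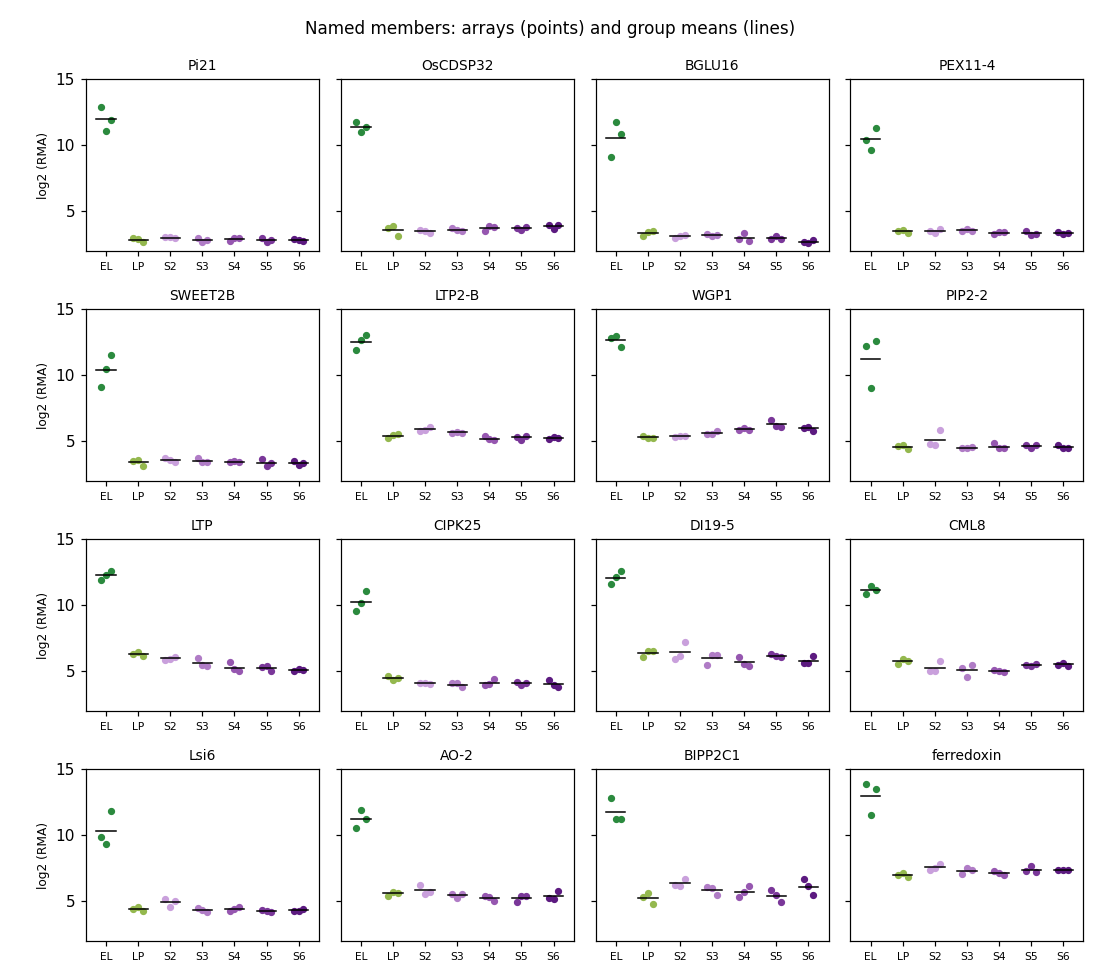
Log2 expression (RMA) of the 16 named member genes, 1 probe set each (the one with the larger gap), in expanded leaf (EL), leaf primordium (LP) and stamen stages 2 to 6 (S2 to S6); points are arrays and lines are group means. In each panel the 3 expanded leaf points stand above all others; PIP2-2 spreads from 9.02 to 12.60 among them.

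Most relatives of the named members, from the same gene families, did not meet the limits. Families were picked after the values were seen, and each gene, relatives and neighbours alike, was read at its probe set with the largest gap. The share of all measured genes with a gap of at least 1 was not counted. Among 12 SWEET genes measured, 1 was a member and 4 had a gap of at least 1. SWEET4, with an expanded leaf mean of 11.01, had a gap of -1.80, so it was higher in another group. Among 10 plasma membrane aquaporins, 1 was a member and 4 had a gap of at least 1; PIP1-1 was bright in leaf (13.54) with a gap of only 0.99. Of 3 PEX11 genes, PEX11-4 was the member, PEX11-1 had an expanded leaf mean of 13.78 and a gap of 4.62, and PEX11-5 had a gap of 0.01. Of 27 GH1 beta-glucosidases, 1 was a member and 11 had a gap of at least 1. The corresponding counts were 1 and 6 of 24 CIPK kinases, 1 and 6 of 23 calmodulin-like genes, 1 and 2 of 5 NIP channels, 1 and 3 of 7 BURP genes, and 1 and 1 of 6 DI19 genes. Of 5 lipid transfer protein genes with such a name, 2 were members and LTP110-A had a gap of -3.41.

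Other probe sets of the same genes were read on the same arrays. For 35 member genes there were 47 further probe sets that were not members, so each had missed at least 1 limit. Their gaps had a median of 2.52 and ran from -1.96 to 6.40, and 41 were above 0 and 36 were at least 1. Shares of all probe sets with such gaps were not counted. Of the 47, the largest gap was that of a probe set of LOC4349376, 6.40, with an expanded leaf mean of 9.12 that kept it under the level limit. The lowest was that of a probe set of LOC4351777, with 9.56 in expanded leaf and 11.52 in its highest other group. For named genes, such gaps were 3.11 (Pi21), 2.77 (PIP2-2), 1.99 (BIPP2C1), 4.68 (OsCDSP32) and 4.86 (SWEET2B). They were 3.79 and 0.61 for LTP2-B, and 4.55 and 2.13 for ferredoxin. That probe set of PIP2-2 had an expanded leaf mean of only 5.73. LOC4352021, with member probe sets at 14.46 and 11.54, is listed together with RBCS1 on some probe sets that were left out by name.

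Some members lay next to each other in the genome. In gene order of assembly ASM3414082v1, 10 of 125 member genes that could be placed (8%) had another member within 2 protein-coding genes on either side. Of 17738 measured genes placed, 288 (1.62%) had a member that near. LTP2-B, LTP and LOC4351319 were consecutive, with expanded leaf means of 12.55, 12.27 and 11.11. Cross-hybridisation between such neighbours was not tested. The first 2 probe sets are of the x kind and that of LOC4351319 is of the s kind. LOC4351314, close to them, had the opposite pattern, at 13.05 in leaf primordium and 6.32 in expanded leaf. LOC4351693, LOC4351694 and LOC4351696 lay within 4 genes, LOC4349165 and LOC4349167 had 1 gene between them, and LOC4349202 and LOC4349203 were adjacent. Within these runs, genes between or beside the members were not always alike: LOC4351697, next to LOC4351696, had a gap of -2.65.

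The 3 expanded leaf arrays differed from each other for many members. The SD over the 3 arrays had a median of 0.65 across members. It was 0.43 across the 4962 probe sets with an expanded leaf mean of at least 10, and 0.25 across all probe sets. In the other groups, the median SD of the members was 0.14 to 0.19. The range over the 3 arrays ran from 0.11 to 3.58 with a median of 1.24, and 40 members ranged over at least 2. Replicate 1 was highest for 77 members, replicate 2 for 35 and replicate 3 for 53. Replicate 2 was lowest for 76, replicate 3 for 55 and replicate 1 for 34. Besides PIP2-2, wide members were LOC4352021 (12.73, 9.49 and 12.39 by the dimmer of its probe sets) and LOC4349203 (12.31, 9.33 and 12.22), both lowest in replicate 2. LOC4338611 was instead lowest in replicate 3, at 12.63, 13.17 and 10.61 by the one of its probe sets with the larger gap.

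Expanded leaf arrays correlated with each other at r = 0.931 to 0.949 over all probe sets, and arrays within each other group at 0.981 to 0.995. The 3' to 5' difference of the actin and GAPDH control probe sets, which grows as RNA is degraded or shortened by amplification, was 1.73, 1.96 and 3.37 on expanded leaf replicates 1, 2 and 3. Its part in the spread of the members was not tested.

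Among the other 6 groups, stamen stage 2 was the highest for 56 members (33.9%), leaf primordium for 36 (21.8%) and stamen stage 6 for 32 (19.4%). Over all probe sets, those shares were 20.3%, 34.1% and 15.1%. Differences among these 6 groups were tested with limma, with p-values adjusted over all 57258 probe sets. The rule did not choose which of the 6 groups was higher, but it held all their means at least 5 below expanded leaf, so the members' shares of calls can differ from those of all probe sets through the choice alone. The fit held the expanded leaf arrays too, which entered its estimate of the spread. Without them, 12 members were called for leaf primordium against stamens (7.27%, against 14.5% of all probe sets) and 4 for stage 3 against stage 2 (2.42%, against 2.38%). For stage 6 against stage 2 there were 10 (6.06%, against 8.80%), and over all stages 19 (11.5%, against 9.93%). A difference was called at an adjusted p under 0.05 and at least 2-fold. The comparisons share arrays, since the stage 2 arrays enter all of them. With the expanded leaf arrays in the fit, 21 members were called at least once (12.7%, against 19.6% of all probe sets) and 144 never. Results below are from that fit unless another is named. None of the 18 probe sets of named genes was called by limma in any comparison. At an unadjusted p under 0.05 there were 4 of them for leaf primordium against stamens, 0 for stage 3 against stage 2, 3 for stage 6 against stage 2 and 3 over all stages. Here and below, shares of all probe sets at an unadjusted p under 0.05, or without overlap between arrays, were not counted.

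Leaf primordium was set against the mean of the 5 stamen stages, since both are young organs. The genes of dividing cells were nevertheless far lower in leaf primordium than in stamens. Of the 165 members, 8 were higher in leaf primordium (4.85%, against 6.71% of all probe sets). In the other direction, 4 were lower (2.42%, against 7.59%). The median difference was -0.03 among members and 0.03 among all probe sets.

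LOC4335227 gave 6.54, 6.91 and 7.16 in leaf primordium and 4.24 to 5.45 (median 4.97) in stamens, a log2 difference of 1.89 ± 0.17 (SE; limma adjusted p = 7.73e-08). LOC4329191 gave 5.81, 5.57 and 5.68 against 3.50 to 4.21 (median 3.81), a difference of 1.87 ± 0.28 (adjusted p = 3.59e-05). Neither overlapped between the groups. LOC4351319, the neighbour of LTP, gave 6.55, 5.82 and 5.78 against 4.32 to 4.68, a difference of 1.59 ± 0.13 (limma adjusted p = 1.92e-08). Its probe set is of the s kind. LOC4326871 (1.35) and LOC4329844 (1.21) were also higher without overlap. LOC4331509 (1.88), LOC4347321 (1.35) and LOC4328623 (1.17) were higher with some overlap between the groups. For LOC4328623, all leaf primordium arrays lay within the stamen range. Its mean was higher at stamen stage 2 (7.16) than in leaf primordium (6.85). The call of LOC4328623 was lost without leaf primordium replicate 1 or replicate 2 (highest adjusted p = 0.195 over all alternatives).

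LOC4351694 was lower in leaf primordium, at 3.58, 3.03 and 3.16 against 4.29 to 6.19 (median 5.45) in stamens. The difference was -2.11 ± 0.23 (limma adjusted p = 1.07e-06), and no arrays overlapped. The probe set of LOC4351694 is of the x kind. Other probe sets of that gene, not members, had gaps of 0.32 to 4.56. Their differences between leaf primordium and stamens are not given here. The other three lower calls were LOC4326583 (-1.27), LOC4333882 (-1.23) and LOC4344150 (-1.07). All of these were lost when leaf primordium replicate 2 was left out, so that LOC4351694 alone of the 4 was still called without that array. LOC4326583 and LOC4333882 were also lost without the stage 2 arrays (limma adjusted p = 0.105 and 0.0518). LOC4326583 and LOC4344150 overlapped between leaf primordium and stamens.

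Among named genes, LTP was higher in leaf primordium by 0.86 ± 0.15 (limma adjusted p = 0.00023), a difference under 2-fold. WGP1 was lower by less, with a difference of -0.53 ± 0.14 (adjusted p = 0.00511). CML8 differed by 0.49 ± 0.18 (limma adjusted p = 0.0442), with adjusted p up to 0.228 over the alternatives. Both WGP1 and CML8 overlapped between leaf primordium and stamens.

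Stage 3 was set against stage 2 to follow the members from the earliest stamens onward. Of the members, 3 fell (1.82%, against 0.721% of all probe sets). No member rose (0%, against 0.824%), and 15 had an unadjusted p under 0.05 in either direction. The difference was below 0 for 109 members and above 0 for 56, with a median of -0.09, against -0.01 for all probe sets. Shares of all probe sets below and above 0 were not counted. LOC4351693 gave 6.22, 6.26 and 6.58 at stage 2 and 3.14, 3.15 and 2.98 at stage 3. It fell by 3.26 ± 0.11 (limma adjusted p = 5.01e-11). Stage 2 alone stood out, since every later stamen array lay between 2.90 and 3.15 and leaf primordium gave 3.11, 2.98 and 2.90. LOC4349165 gave 7.01, 6.38 and 6.83 at stage 2 and 5.63, 4.79 and 4.61 at stage 3, and fell by 1.73 ± 0.22 (adjusted p = 0.000327). LOC4331509 gave 5.61, 4.85 and 6.28 at stage 2 and 3.95, 3.81 and 4.01 at stage 3, and fell by 1.66 ± 0.29 (adjusted p = 0.0049). With only the 2 groups compared in the fit, LOC4331509 had the same difference of -1.66 but was not called (adjusted p = 0.0619). With the 3' to 5' difference added to the fit, its difference was -1.5 and it was not called either (adjusted p = 0.102). None of the 3 overlapped between the stages.

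Stage 6 was set against stage 2 to span the stages sampled. 7 members fell (4.24%, against 3.47% of all probe sets) and 1 rose (0.606%, against 4.40%). None of the 8 overlapped between the 2 stages. LOC4351693 fell by 3.38 ± 0.11 (limma adjusted p = 1.9e-11), LOC4349165 fell by 2.38 ± 0.22 (adjusted p = 2.5e-06) and LOC4331509 fell by 2.01 ± 0.29 (adjusted p = 0.000155). For these, the decline seen by stage 3 was still present. LOC4345962 gave 7.93, 7.58 and 7.48 at stage 2 and 6.32, 5.75 and 6.07 at stage 6, and fell by 1.62 ± 0.22 (adjusted p = 9.14e-05). At stage 3 it was still at 7.05, 6.73 and 7.26. LOC4325645 fell by 1.14 ± 0.22 (adjusted p = 0.00175), and was not called once the fit held the 3' to 5' difference. LOC4342030 fell by 1.08 ± 0.22 (adjusted p = 0.00228). LOC4328623 fell by 1.48 ± 0.49 (adjusted p = 0.0479), where stage 2 replicate 3 (8.51) stood above the other two (6.60 and 6.36). This last call was lost in 17 of 33 alternatives, among them median centring, the replicate block and leaving out single arrays of each group other than expanded leaf, with adjusted p up to 0.413. LOC4329844 rose by 1.00 ± 0.25 (adjusted p = 0.0115), from 4.37, 4.18 and 4.56 to 5.35, 5.20 and 5.57. The calls of LOC4342030 and LOC4329844 were each lost without 1 of 2 single arrays, stage 2 replicate 3 or stage 6 replicate 2 for the first and stage 2 replicate 2 or stage 6 replicate 3 for the second.

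The differences of the named genes between stages 2 and 6 were all under 2-fold. LTP differed by -0.89 ± 0.20 (limma adjusted p = 0.00457), LTP2-B by -0.64 (adjusted p = 0.0336) and WGP1 by 0.60 (adjusted p = 0.0267). None met the 2-fold limit. Over the alternatives, the difference went as near 0 as -0.46 for LTP, -0.19 for LTP2-B and 0.11 for WGP1, with adjusted p up to 0.386, 0.758 and 0.845.

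**Figure D4:**
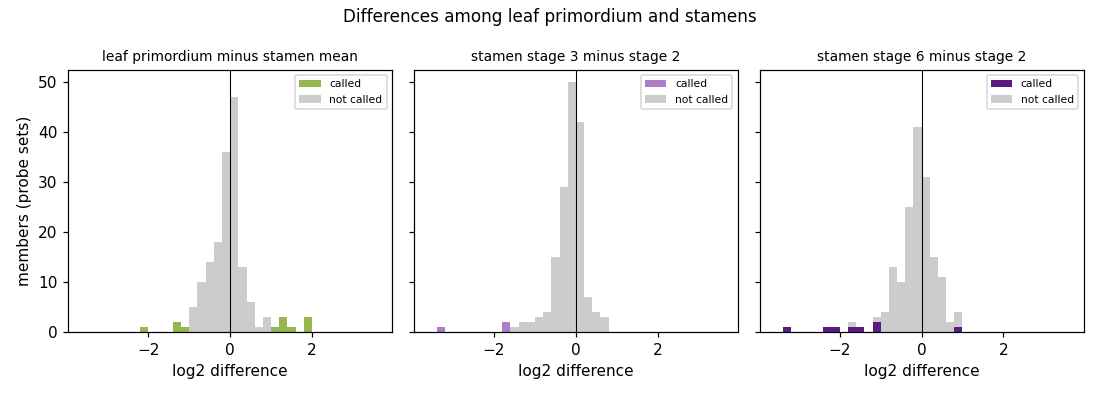
Histograms of the log2 differences of the 165 members in 3 comparisons, with called members coloured and the others grey, stacked. Most differences lie near 0; the 3 calls between stages 3 and 2 are all negative, and 8 of the 12 calls between leaf primordium and stamens are positive.

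Over the 5 stamen stages, 13 members changed by limma's F test with at least a 2-fold range of stage means (7.88%, against 7.23% of all probe sets). The median range was 0.38 for members and 0.32 for all probe sets. The largest ranges were those of LOC4351693 (3.38), LOC4349165 (2.53), LOC4328623 (2.29) and LOC4331509 (2.13). Without stage 2 replicate 3 the count was 8 (4.85%, against 5.68% of all probe sets). Without any stage 2 array it was 3 (1.82%, against 1.57%), namely LOC4344150, LOC4345962 and a probe set with no annotated gene. LOC4345962 was called under every alternative run, with a range of 1.62 (adjusted p = 0.000425). The probe set with no annotated gene was highest at stage 3 and had a range of 1.43 (adjusted p = 0.0112). LOC4345663 was highest at stages 2 and 6 by the brightest of its 3 member probe sets (range 1.90, adjusted p = 0.0297), and the other two were not called. Its call was lost in 11 of 34 alternatives, 8 of which left out a single array of stage 2, 3, 4 or 6.

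Several measures moved with stage 2. Its arrays had a 3' to 5' difference of 3.19 to 3.41, against 1.27 to 2.69 at later stages. The median of the green tissue genes was 7.99 to 8.50 at stage 2 and 6.82 to 7.77 later. Its 5 genes did not move together. By group means, CAB2R (9.24 at stage 2, 6.04 to 6.97 later), RCABP89 (8.32, then 7.42 to 7.74) and RCAA1 (7.11, then 6.77 to 6.94) were highest at stage 2. RBCS was highest at stage 3 (10.45, against 9.51 at stage 2) and PETE was lowest at stage 2 (6.89, then 6.96 to 7.49). The spikelet list (5 MADS-box genes of lemma, palea and other organs) had a median of 7.65 to 9.43 at stage 2 and 7.12 to 8.33 later. OSH1, the meristem gene measured of 2 listed, had means of 8.74 at stage 2, 6.72 at stage 3 and 5.33 to 5.61 later. The aleurone and soaked embryo list had a median of 6.64 to 6.94 at stage 2 and 6.16 to 7.13 later. Within it, AMY1.3 had means of 12.14 at stage 2 and 7.10 at stage 6, and LEA19 of 9.98 and 7.50. The part of tissue makeup in the higher stage 2 values was not tested. With a term for the 3' to 5' difference, LOC4351693 differed by -3.08 and LOC4349165 by -1.65 between stages 3 and 2, and both were called (limma adjusted p = 4.45e-09 and 0.015). All stage 2 arrays lay above all later stamen arrays in that difference, so this fit cannot separate it from stage 2. Within groups, it ranged most widely in expanded leaf (1.73 to 3.37). Its part in the higher stage 2 values was thus not tested. The same limit holds for the other results over stamen stages with this term.

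**Figure D5:**
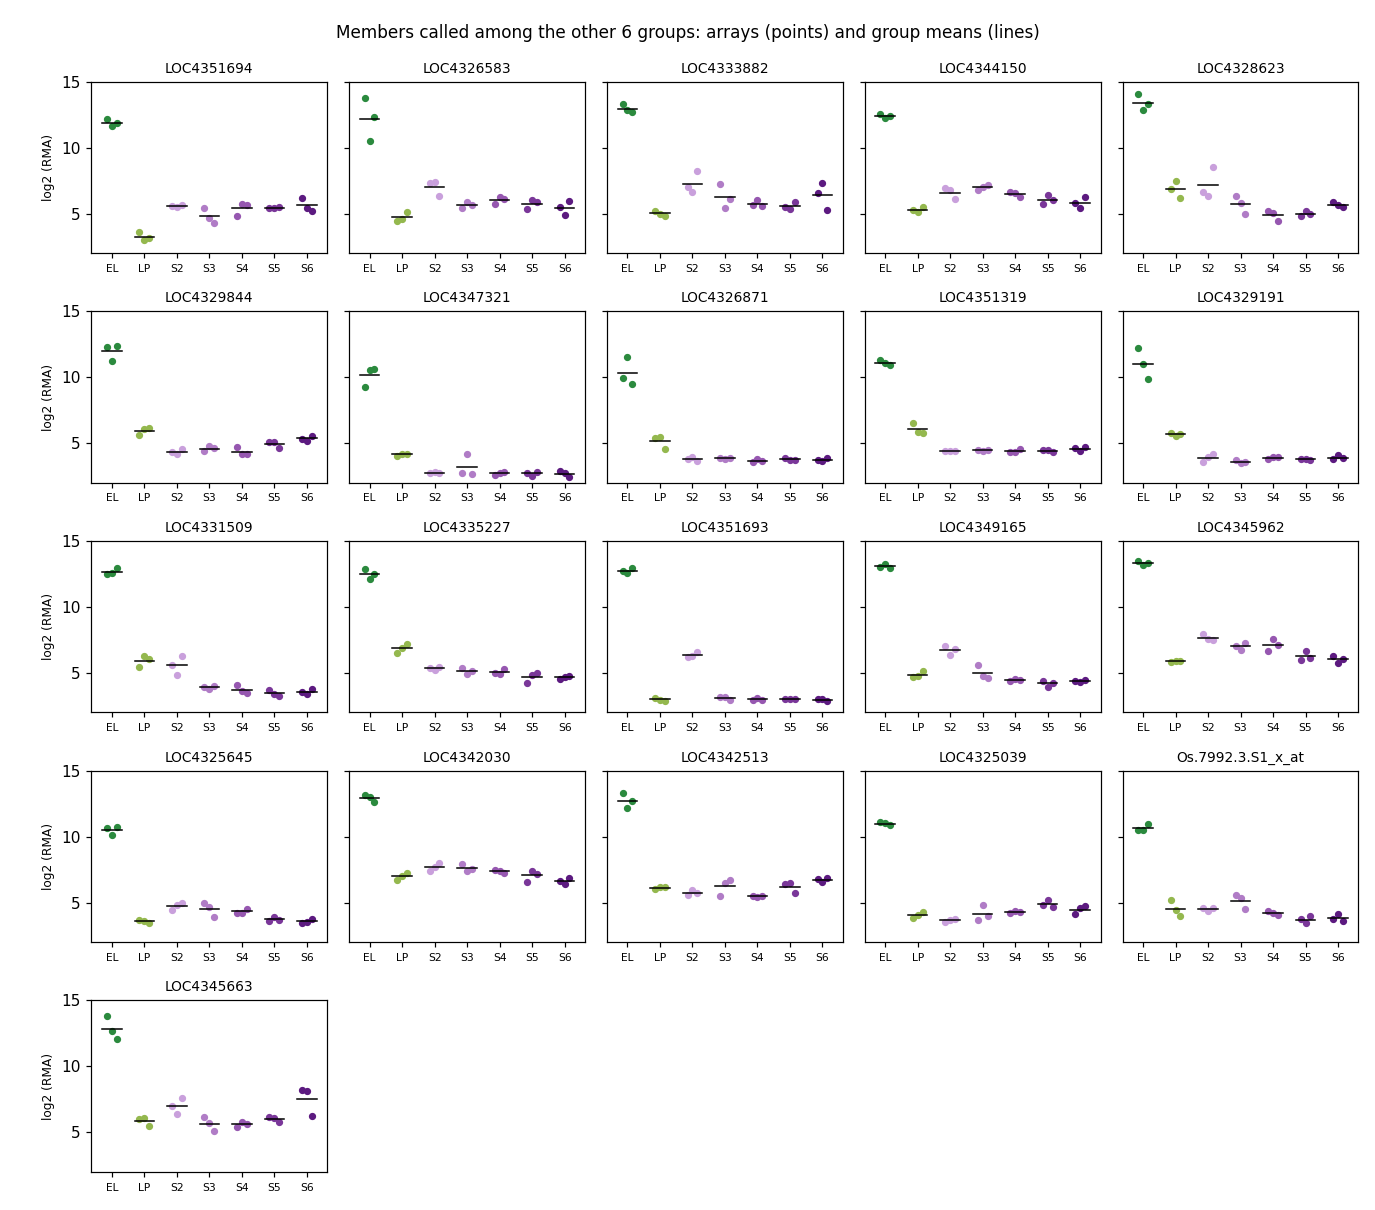
Log2 expression (RMA) of the 21 members called in any comparison among the other 6 groups, in expanded leaf (EL), leaf primordium (LP) and stamen stages 2 to 6 (S2 to S6); points are arrays and lines are group means. LOC4351693 stands at 6.22 to 6.58 at stage 2 and near 3 in leaf primordium and all later stages, while LOC4335227 is higher in leaf primordium than on any stamen array.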

How the data were processed

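The deposited values are log2 signals that the authors made with RMA, per the submitters' processing notes (version: not given in the sources used here). RMA quantile-normalizes the arrays, so a change of most genes in one direction would not be seen. Of 57381 probe sets, 123 controls were left out and 57258 tested. The number of arrays limits the precision. Gene names came from the platform annotation and RefSeq (assembly ASM3414082v1, used only for names and neighbours). These tables held no product names and no sequences, so the planned functional groups and promoter motifs were not analysed here, and names are RefSeq synonyms.

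The members, lists and comparisons were chosen with earlier results of these data known. One limma model (limma 3.58.1, R 4.3.3) with 7 group means was fitted to all 21 arrays. Tests were two-sided, with Benjamini-Hochberg adjustment, and called at adjusted p under 0.05 and at least 2-fold. The model was also run on simulated data in which each probe set had the same spread in all groups. Members varied more in expanded leaf (median SD 0.65) than in the other groups, so the simulation did not cover that difference.

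The rule for names took the largest gaps, all members with a gene name, up to 6 called members each way without overlap, and 3 probe sets each side of the gap limit. Its condition on product names could not be applied, so the largest gaps were taken without it. Members called with overlap, wide or bright members, members called only by the F test, relatives, neighbours and other probe sets were chosen after their values were seen. Alternatives changed the normalization, filters, variance prior, array weights, block, groups fitted, thresholds and single arrays. A term for the 3' to 5' difference and the fits without stage 2 were chosen after seeing the data.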

Additional observations from a re-analysis of the deposited data

How the results depend on the processing

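The set held 287 probe sets with a gap of at least 4 and 85 with a gap of at least 6, and between 162 and 215 when single arrays were left out (215 without expanded leaf replicate 2, of which 154 were among the 165). Calls for leaf primordium against stamens numbered 12, with 9 to 13 when single arrays were left out, 7 among probe sets at or above the median mean (9.09%, all probe sets 24.1%) and 36 with no fold threshold (21.8%, all 31.8%). Stage 3 against stage 2 gave 3 calls, with 3 to 4 when single arrays were left out and 1 under that median filter (1.3%, all 2.35%). Stage 6 against stage 2 gave 8, with 6 to 10 and, with no fold threshold, 17 (10.3%, all 15.7%). Change over the stages gave 13, with 8 to 15, 8 under the median filter (10.4%, all 11.6%), 22 with array weights (13.3%, all 11.2%), 5 at an adjusted p under 0.01 (3.03%, all 4.48%), 7 with a term for the 3' to 5' difference (4.24%, all 3.72%) and 3 without the stage 2 arrays (1.82%, all 1.57%). The last 2 settings were chosen after seeing the data. The median filter left 77 of the 165 members to test; the cause of the other changes was not tested. When single arrays were left out, the calls among all probe sets were 13.8% to 14.4%, 0.494% to 2.05%, 6.40% to 8.47% and 5.30% to 8.80%, in the order above. With the replicate number as a block the 4 counts were 12 (7.27%, all 14.3%), 3 (1.82%, all 1.47%), 7 (4.24%, all 7.87%) and 11 (6.67%, all 7.08%). The numbers share only a number: 16 of 45 pairs of same-numbered arrays from different groups had deviations correlated over 0.1 (r = -0.426 to 0.484). Of 1197 alternative results for 36 single member calls, 1089 kept the call, 108 lost it and 0 reversed direction. The 13 ranges over stages cannot reverse, since a range is never negative. Changes of threshold reused the main fit, and dropping the fold threshold could not lose a call. For leaf primordium against stamens, fitting only the groups compared was the same as leaving out expanded leaf.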
